A study of Homo sapiens with 18 samples.

Results

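DLD1 is an established human colorectal adenocarcinoma line. The comparison described here sets DLD1 carrying CRISPR guide 1 against ZNF692 (sgZ1, labelled ZNF692 KO) beside DLD1 carrying a control guide (sgC). It uses 6 poly(A) RNA libraries of the 18 in the series, 3 with sgZ1 and 3 with sgC, chosen by their column names and titles and not by any measured value. The 3 poly(A) libraries of a second guide against ZNF692 (sgZ3, also labelled ZNF692 KO) served to test where the derivatives differ. All 9 were made from cells grown in DMEM with 5% serum, infected with lentivirus and, 48 h later, put under puromycin at 10 µg/ml. The labels describe stable lines and do not say whether a line is 1 clone or whether replicates are separate cultures. P-values therefore measure only the spread between these libraries, which may be technical, and 1 derivative line per guide cannot separate the guide from the history of that line.

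ZNF692 encodes a zinc-finger protein of the nucleus. DLD1 is a mismatch-repair-deficient line with mutated MSH6, an epithelial character and active Wnt signalling through loss of APC. In epithelial cancer lines, germ-cell genes and many developmental genes are often held silent by DNA methylation at CG-rich promoters. A bulk library gives the mean over all cells, so a moderate level in every cell and a high level in part of the cells cannot be told apart, nor can fewer cells of a type and less RNA per cell.

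ZNF692 mRNA, on the minus strand of chromosome 1 (chr1:248850006-248859144, GRCh38), was at 7.01, 6.32 and 6.18 CPM (counts scaled to library size with TMM factors) in sgC. It was at 9.64, 9.83 and 11.5 CPM in sgZ1 and at 7.92, 8.08 and 6.29 CPM in sgZ3. It was higher in all 3 sgZ1 libraries than in all sgC libraries, with a log2 fold change of 0.66 (SE 0.14, quasi-likelihood F test in edgeR, Benjamini-Hochberg adjusted p = 0.0048). A frameshift can leave a transcript level as it was, so the label is not checked by it, and every direction below is one between libraries labelled sgZ1 and libraries labelled sgC. Its neighbours SH3BP5L (0.22, adjusted p = 0.12), ZNF672 (-0.14, adjusted p = 0.36) and PGBD2 (0.23, adjusted p = 0.34) did not pass the test.

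Totals were 18146624 to 22111364 counts in sgC, 20004597 to 24535642 in sgZ1 and 16044224 to 20613158 in sgZ3. Intestinal epithelial markers were detected in all 6 libraries: the intestinal transcription factor CDX2 was at 179 to 230 CPM and EPCAM, an epithelial surface protein, at 959 to 1273 CPM, both in their lower range in sgZ1. Such markers do not tell one colorectal line from another. That the cells labelled sgZ1 descend from the same DLD1 as sgC was not tested, since no genotypes were used here, and every difference below is read with that limit. The replicate 2 library of sgZ1 stood apart in one set of transcripts, which it shared with sgZ3 replicate 3. VIM, a mesenchymal intermediate filament, was at 22.9 CPM there and at 0.606 and 0.493 CPM in the other sgZ1 libraries, SPARC at 64.3 against 3.73 and 4.98 CPM, and COL1A1 at 12.2 against 1.40 and 1.18 CPM. The summed level of 15 fibroblast markers was 107 CPM in that library, 10.9 and 10.6 CPM in the other sgZ1 libraries and 10.6 to 11.4 CPM in sgC. Of other stromal genes in that library, COL5A1 was at 12.9 CPM and CDH11 at 7.49 CPM, against at most 0.107 CPM in the other 5 libraries compared, MMP2 was at 1.51 CPM against at most 0.195, COL3A1 at 0.737 and POSTN at 0.614 against 0, COL1A2 at 0.0819 against 0, and DCN was at 0. None of the 7 fibroblast, 2 leukocyte or 3 endothelial markers tested passed the test in sgZ1 against sgC, nor did any of the 5 squamous or other epithelial lineage markers. For some fibroblast markers this depended on the fit. COL1A1, at 0.321 to 0.633 CPM in sgC, was called without sgZ1 replicate 2 and sgZ3 replicate 3 (log2 fold change 1.56, edgeR adjusted p = 0.00088). Without the low-count filter VIM, SPARC and COL1A1 were called (edgeR adjusted p = 2.08e-51, 3.06e-44 and 2.97e-33). VIM and SPARC were above sgC in sgZ1 replicate 2 alone, so their small p-values do not reflect the spread among the sgZ1 libraries. In the squamous and other epithelial list, KRT5 was at 3.35, 11.5 and 4.68 CPM in sgZ1 against 0.682 to 0.853 CPM in sgC. That list summed to 34.3 to 35.8 CPM in sgZ1 and 29.8 to 33.5 CPM in sgC. It had 1 higher call without sgZ1 replicate 2 and sgZ3 replicate 3. Of 9 tested markers of embryonic kidney packaging cells, which are used to make lentivirus, PAX2 and GAL were called higher (GAL not without sgC replicate 1 or 3 or sgZ1 replicate 1 or 3, adjusted p = 0.066 to 0.13), and the summed level of the list was 91.6 to 107 CPM in sgZ1, 75.9 to 93.0 CPM in sgC and 105 to 124 CPM in sgZ3. Of 7 neural and neuroendocrine markers, INSM1 and NCAM1 were called lower, and neither was called when some single libraries were left out (adjusted p up to 0.064 and 0.17). The part of these transcripts in the results below was not tested beyond the fits without sgZ1 replicate 2 that are given.

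The differences between sgZ1 and sgC were lopsided in size. Of 14732 genes tested, 3807 were called at a false discovery rate under 0.05 (25.8%), 2286 higher in sgZ1 (15.5%) and 1521 lower (10.3%). Beyond a 2-fold change (1 on the log2 scale) the counts were 808 higher and 142 lower, beyond 2 on the log2 scale 459 and 5, beyond 3 they were 331 and 0, and beyond 5 they were 131 and 0. Of the 131, 32 had 0 counts in all sgC libraries and 82 had 3 counts or fewer, so their fitted fold changes depend on a prior count and are no bound. Among the 10357 tested genes with a mean of at least 5 CPM in sgC, 20 were called higher by over 2 on the log2 scale and 0 fell by that much. The lowest log2 fold change among these was that of SLC16A4, a monocarboxylate transporter family gene, at -1.64. Tested against a 2-fold minimum, 471 genes were higher and 4 were lower. In sgZ3 against the same 3 sgC libraries 36.3% of genes were called: 179 genes were called higher and 508 lower beyond a 2-fold change, and 3 and 1 beyond 3. The 2286 higher calls were 1442 without sgC replicate 1. The total of 3807 fell to 2129 without sgC replicate 1 and to 2466 without sgC replicate 3, and was 3641 without sgZ1 replicate 2. The lower calls fell from 1521 to 687, 954 and 883 without sgC replicate 1, 2 and 3.

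**Figure D1:**
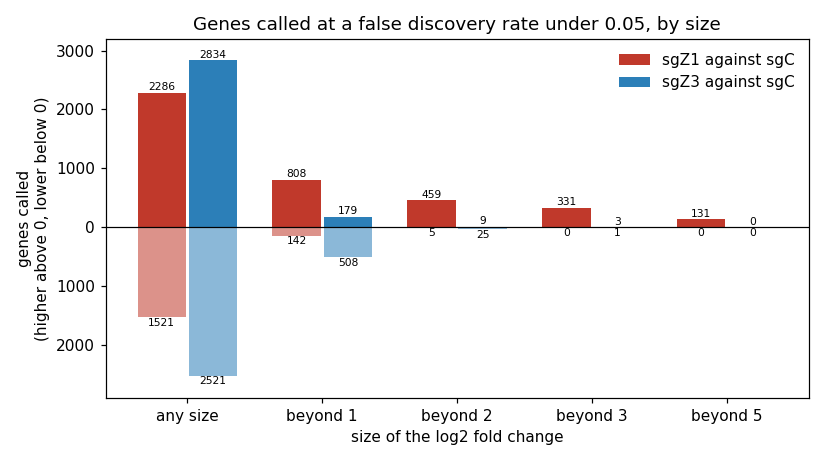
Number of genes called in sgZ1 against sgC (red) and sgZ3 against sgC (blue), n = 3 libraries per group, by the size of the log2 fold change, with genes higher than sgC above 0 and lower ones below 0. Past a log2 fold change of 3 there were 331 higher and 0 lower genes in sgZ1.

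A set of genes had counts near zero in sgC and was on in sgZ1. By a level rule that uses no test, above 2 CPM in every sgZ1 library and below 0.5 CPM in every sgC library, 124 genes were on (0.264% of the 47021 in the table), and 0 were off by the reverse rule. The 124 were chosen by their levels in these libraries. Their separation from sgC, and any small p-value given for one of them below, are therefore no added support. The same rule found 0 genes on and 0 off in sgZ3 against sgC. Of the 124 genes, 119 are protein coding, 29 were above 10 CPM on average in sgZ1 and 11 had 0 counts in all sgC libraries. They lie on 22 chromosomes, with 20 of them (16.1%) on chromosome 19, which holds 6.73% of the tested genes. Together they made up 1093, 1116 and 1234 CPM in the sgZ1 libraries, 15.7 to 19.8 CPM in sgC, and 16.5, 15.9 and 94.3 CPM in sgZ3. In 87 of them every sgZ3 library was also below 0.5 CPM, and in 32 only sgZ3 replicate 3 was at or above it. The rule asks for every sgZ1 library, so a gene carried by replicate 2 alone could not enter the set. Within the set, the level in sgZ1 replicate 2 over the mean of replicates 1 and 3 had a median of 0.970. It was 1.5 or more in 5 genes. Just inside the rule were MAGEA2, KRT6A, NRTN, GNG7 and KRT13 (lowest sgZ1 library 2.00 to 2.05 CPM), and just outside it were DDIT4L, EFNA2, GLT8D2, NKX2-8, UNC5A and ZNF548 (1.91 to 1.97 CPM). The rule reads the count of each named entry, which may miss reads shared with an overlapping gene. ALDOA entered it at 0 to 0.128 CPM in sgC and 2.21 to 2.33 CPM in sgZ1. OR51B5 and HBE1, both among the 124, overlap on the minus strand of chromosome 11 and have the same annotated end. The part of such overlaps in the set was not tested. An annotated gene lies on the other strand of 59 of the 124, and without strand information reads of the pair cannot be told apart. This holds for GTSF1, NTSR1, CD109, RAB31, ANXA10, SLC6A17, HS6ST2, IRX4, PRRX2, RUNX3, LOXL2, KRT13 and KRT23, and outside the 124 for MSH6, DKK1, HAS3, CDKN2A and MYL9.

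The sequences before the starts of 6 genes show how unlike these promoters are. They are the 250 bases before each start, from RefSeq on GRCh38.p14, 5′ to 3′ on the gene's strand, with each CG dinucleotide in capitals. NTSR1 (chr20:62708586-62708835, plus strand) and HTR7 (chr10:90858040-90858289, minus strand) were chosen as CG-dense windows of receptor genes, MAGEB2 (chrX:30215313-30215562, plus strand) and GTSF1 (chr12:54473603-54473852, minus strand) as germ-cell genes, DKK1 (chr10:52314031-52314280, plus strand) as the gene at the highest level among the largest changes, and ANXA10 (chr4:168092287-168092536, plus strand) as a gene that was on with no CG in the window.
NTSR1: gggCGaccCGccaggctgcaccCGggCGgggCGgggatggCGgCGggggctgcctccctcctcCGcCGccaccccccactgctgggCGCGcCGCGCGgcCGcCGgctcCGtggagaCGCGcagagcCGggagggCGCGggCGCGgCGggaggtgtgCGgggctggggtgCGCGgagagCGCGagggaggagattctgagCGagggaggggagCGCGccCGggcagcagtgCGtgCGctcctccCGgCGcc
HTR7: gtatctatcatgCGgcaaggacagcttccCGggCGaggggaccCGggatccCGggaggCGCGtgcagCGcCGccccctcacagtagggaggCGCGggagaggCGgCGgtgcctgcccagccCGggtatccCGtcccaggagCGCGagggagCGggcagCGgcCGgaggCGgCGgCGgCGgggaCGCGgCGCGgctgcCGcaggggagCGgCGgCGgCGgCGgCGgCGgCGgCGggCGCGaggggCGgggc
MAGEB2: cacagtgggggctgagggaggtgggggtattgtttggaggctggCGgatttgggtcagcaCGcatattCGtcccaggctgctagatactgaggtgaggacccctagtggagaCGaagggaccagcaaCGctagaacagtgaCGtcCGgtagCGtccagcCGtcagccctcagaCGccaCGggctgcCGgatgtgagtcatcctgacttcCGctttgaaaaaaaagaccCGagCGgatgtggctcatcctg
GTSF1: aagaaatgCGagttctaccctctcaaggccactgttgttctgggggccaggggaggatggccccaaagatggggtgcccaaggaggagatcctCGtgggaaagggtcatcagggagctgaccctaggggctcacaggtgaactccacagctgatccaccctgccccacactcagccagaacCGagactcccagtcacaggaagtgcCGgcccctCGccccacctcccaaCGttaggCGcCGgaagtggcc
DKK1: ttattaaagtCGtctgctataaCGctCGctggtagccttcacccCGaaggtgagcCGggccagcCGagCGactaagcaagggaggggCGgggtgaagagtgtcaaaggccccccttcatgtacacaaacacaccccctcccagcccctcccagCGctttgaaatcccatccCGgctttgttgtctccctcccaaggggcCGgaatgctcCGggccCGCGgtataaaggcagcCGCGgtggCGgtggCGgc
ANXA10: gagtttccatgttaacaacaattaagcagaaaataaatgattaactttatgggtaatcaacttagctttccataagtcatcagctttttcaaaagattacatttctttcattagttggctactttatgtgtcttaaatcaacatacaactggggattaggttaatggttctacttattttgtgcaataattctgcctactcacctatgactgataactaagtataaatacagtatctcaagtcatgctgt
These windows hold 38 CG dinucleotides in NTSR1, 41 in HTR7, 15 in MAGEB2, 8 in GTSF1, 18 in DKK1 and 0 in ANXA10. Of the 124 genes 87 matched a RefSeq window by symbol, and their CG count had a median of 18 (range 0 to 48). The median was 21 over the 10347 tested protein-coding genes that matched and 11 over all 27305 genes with a window. At least 10 CG stood in 64 of the 87 (73.6%), in 84.9% of the tested protein-coding genes and in 51.9% of all. CG is its own reverse complement, so both strands are covered by one count. No methylation was measured in these libraries, and the counts describe letters only.

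Of the 124, 5 were grouped as germ-cell and cancer-testis genes (the grouping by role was made after the genes were known), MAGEB2 and GTSF1 at the highest levels of all and 2 others near the limit of the rule. In the wider list of 77 cancer-testis and germline genes 12 had enough counts to be tested, with a median log2 fold change of -0.43. Of the 12, 5 were called higher (41.7%, against 15.5% of all genes) and 0 lower (against 10.3%). Of these 5, MAGEB2, GTSF1 and MAGEA2 were below 0.5 CPM in every sgC and sgZ3 library. They passed the count filter through sgZ1 alone, so their higher calls were fixed by that filter. MAGEB2, an X-linked member of the MAGE family of testis-restricted genes, was at 71.7, 84.1 and 73.4 CPM in sgZ1. It was at 0.438, 0.0536 and 0.0853 CPM in sgC, with sgZ3 at 0.203, 0.325 and 0.406 CPM, so the sgZ1 libraries were above all others without overlap. That is a log2 fold change of 8.59 (SE 0.29, adjusted p = 3e-09). GTSF1, a gonad-specific factor of the piRNA pathway, which silences transposons in germ cells, was at 57.6, 72.4 and 69.8 CPM in sgZ1 and at 0.292, 0.214 and 0.0853 CPM in sgC (log2 fold change 8.39, SE 0.22). M1AP, a meiosis-associated gene, was at 10.8, 10.0 and 11.7 CPM in sgZ1, had a single count over the 3 sgC libraries, and was at 0 in all 3 sgZ3 libraries. MAGEA2 and CSAG3, a neighbour of MAGE genes on the X chromosome, were on at means of only 2.40 and 2.47 CPM. MAGEA2 has a near-identical copy, so its level is uncertain. All 5 genes of this group were below 0.5 CPM in every sgZ3 library.

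Receptors and ion channels formed the largest role group, 15 of the 124, with means of 2.42 to 58.0 CPM in sgZ1, and 14 of them were below 0.5 CPM in every sgZ3 library. NTSR1, the receptor of the gut peptide neurotensin, was at 63.0, 39.9 and 71.0 CPM in sgZ1 against 0.0487, 0.268 and 0.0426 CPM in sgC. Its log2 fold change was 8.94 (SE 0.39), and the sgZ3 libraries, which the rule did not use, were at 0.203, 0.217 and 0.0508 CPM. HTR7, a serotonin receptor, was at 26.9, 28.98 and 29.07 CPM in sgZ1, with sgC at 0, 0 and 0.171 CPM, with sgZ3 at 0 to 0.163 CPM. LPAR3, a lysophosphatidic acid receptor, was at 12.8, 10.8 and 12.7 CPM against 0 to 0.161 CPM in sgC. The amino-acid transporter genes SLC38A5 (37.6, 47.7 and 48.3 CPM against 0.0487 to 0.171 CPM) and SLC6A17 (11.2, 8.68 and 13.4 CPM against 0.0487 to 0.107 CPM) were on as well.

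ANXA10, a calcium-binding annexin best known from stomach epithelium, had 0 counts in all sgC libraries and was at 21.99, 27.1 and 24.98 CPM in sgZ1. Against the limit that 0 counts allow (3 counts over the sgC group, counting error only) it was at least 516-fold higher. The neuropeptide gene NPW was at 25.02, 18.3 and 30.7 CPM against 0.0536 to 0.0974 CPM in sgC, and WNT3A, a Wnt ligand, at 2.56, 2.17 and 3.35 CPM with 1 count over sgC. CD109, a membrane-anchored protein that binds TGF-beta, was at 30.8, 21.98 and 27.1 CPM against 0.107 to 0.213 CPM, and the small GTPase genes RAB31 and DIRAS1 had means of 26.7 and 23.9 CPM. Among 9 developmental transcription factors, IRX4, PRRX2 and LMX1B had 0 counts in sgC, with ranges in sgZ1 of 6.35 to 7.93, 4.38 to 5.81 and 2.78 to 3.35 CPM, and RUNX3 was at 8.11 to 11.5 CPM. Of the 9, 7 were below 0.5 CPM in every sgZ3 library.

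**Figure D2:**
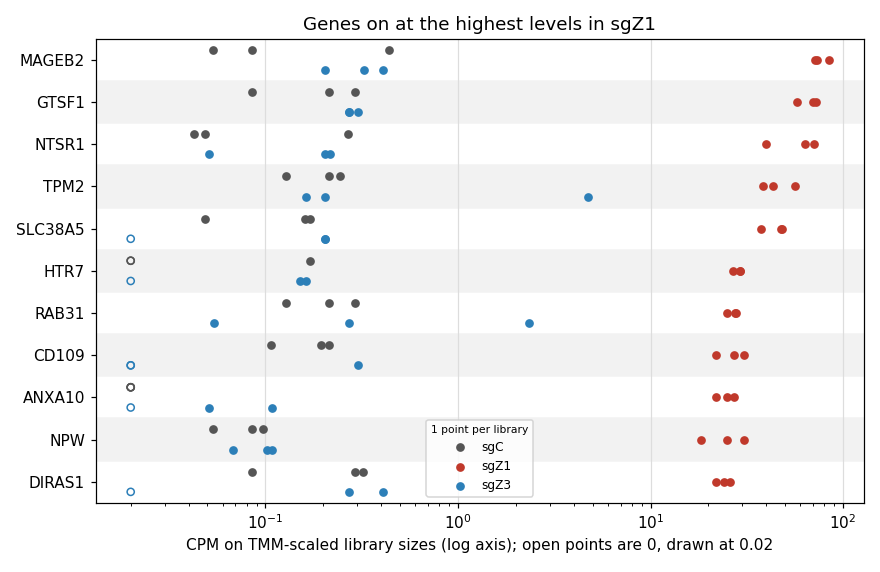
CPM of 11 genes among the 12 that were on at the highest mean in sgZ1, 1 point per library (grey sgC, red sgZ1, blue sgZ3) on a log axis, with values of 0 drawn as open points at 0.02. The sgZ1 points lie to the right of all others for each gene, and TPM2 and RAB31 also had 1 raised sgZ3 library.

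Matrix, muscle-type and cytoskeletal genes had another layout in sgZ3: of 11 such genes 3 were below 0.5 CPM in every sgZ3 library, and in 8 sgZ3 replicate 3 alone was at or above it. TPM2, a tropomyosin of the actin filament, was at 43.1, 38.6 and 56.3 CPM in sgZ1, with sgC at 0.128 to 0.244 CPM, with sgZ3 at 0.203, 0.163 and 4.72 CPM. COL6A2, a collagen VI chain, was at 20.03, 16.7 and 24.2 CPM in sgZ1 with 3 counts over sgC, and at 0.135, 0.0542 and 5.99 CPM in sgZ3. Its edgeR adjusted p of 0.012 rose to 0.058 to 0.065 when any single sgC library was left out. LOXL2, an enzyme that cross-links collagen, was highest in the sgZ1 library that stands apart (8.99, 24.5 and 11.8 CPM) and reached 21.1 CPM in sgZ3 replicate 3. COL12A1 had the same layout (4.89, 12.04 and 5.72 CPM in sgZ1, 11.8 CPM in sgZ3 replicate 3). Both were above 0.5 CPM in all sgZ1 libraries and missed the threshold in the fit to all libraries (adjusted p = 0.0725 and 0.0742). Without sgZ1 replicate 2 and sgZ3 replicate 3, an alternative chosen after seeing the data, both were called (adjusted p = 3.9e-16 and 3.2e-13), as they were with the 6 compared libraries alone (1.7e-05 and 3.3e-06).

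Further genes rose many-fold from a low but measurable level. DKK1, a secreted inhibitor of Wnt receptors, reached the highest level of them, at 290, 381 and 300 CPM in sgZ1 against 0.341, 0.268 and 0.682 CPM in sgC (log2 fold change 9.49, SE 0.91, edgeR adjusted p = 0.00042). In sgZ3 DKK1 was at 0.744, 1.03 and 8.27 CPM, raised in replicate 3. MSH6, whose protein recognises DNA mismatches, was at 6.53, 9.48 and 6.87 CPM in sgC, and sgZ1 had 67.3, 69.6 and 74.8 CPM (log2 fold change 3.21, SE 0.22, adjusted p = 7.4e-07). The sgZ3 libraries were at 4.40, 4.45 and 8.53 CPM, the first pair below the range of sgC and the third within it. CDKN2A, which encodes the cell-cycle inhibitor p16, was at 1.80, 3.16 and 2.39 CPM in sgC, and sgZ1 had 32.3, 35.9 and 36.9 CPM (log2 fold change 3.84, SE 0.19, adjusted p = 5.3e-08). MAGEA3, another MAGE gene, rose from 4.02 ± 0.313 CPM (SD, n = 3) to 76.8 ± 8.57 CPM, and PRAME, a testis and tumour antigen, from 2.27 ± 0.396 to 13.8 ± 1.08 CPM. MAGEA6, nearly identical in sequence to MAGEA3, was at 2.90 to 3.85 CPM in sgC and 1.63 to 2.66 CPM in sgZ1, so reads of the pair may be divided unevenly and each level is uncertain.

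Rises of unlike size reached genes of the cell surface, transport and stress, many-fold in most and a log2 fold change of 1.28 in CAV2. HAS3, a hyaluronan synthase, was at 49.3, 46.8 and 55.4 CPM in sgZ1 against 2.19, 2.84 and 2.69 CPM in sgC (log2 fold change 4.29, SE 0.14). HS3ST1 and HS6ST2, which add sulfate groups to heparan sulfate, rose from 22.8 ± 0.336 to 120 ± 10.4 CPM and from 0.416 ± 0.0711 to 16.7 ± 0.293 CPM. CAV1, the main protein of caveolae, rose from 36.8 ± 1.30 to 175 ± 12.4 CPM and its partner CAV2 from 41.5 ± 1.89 to 100.5 ± 15.1 CPM. ABCC2, an organic-anion exporter, went from 0.707 ± 0.0589 to 31.1 ± 2.28 CPM, STC2, a secreted glycoprotein of the stress response, from 2.46 ± 0.027 to 28.3 ± 4.23 CPM, and CPNE7, a calcium-dependent membrane-binding copine, from 0.593 ± 0.234 to 25.4 ± 2.93 CPM. BNIP3, a mitophagy receptor, rose from 4.2 ± 0.278 to 25.9 ± 2.81 CPM. ESRP1, a splicing regulator of epithelial cells, rose from 28.99 ± 1.08 to 77.7 ± 5.92 CPM. STC2 had the highest edgeR adjusted p among the 10, 2.0e-05.

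The lowest changes were small beside the largest rises. Among protein-coding called genes with a mean of at least 5 CPM over the 6 libraries and no overlap between groups (44.3% of tested genes did not overlap), the 15 lowest log2 fold changes ran from -1.64 to -1.10. SLC16A4 was at 49.2, 33.6 and 38.7 CPM in sgC, and sgZ1 had 13.2, 10.5 and 15.5 CPM. TXNIP, an arrestin that limits glucose uptake and follows glucose supply, fell from 712, 589 and 570 CPM to 301, 262 and 270 CPM (log2 fold change -1.17, SE 0.10, edgeR adjusted p = 6.8e-06). PCK2, the mitochondrial phosphoenolpyruvate carboxykinase, fell from 306, 202 and 254 to 122, 80.5 and 138 CPM. BTC, an EGF-family ligand, fell from 26.4, 23.5 and 21.7 to 10.9, 12.5 and 9.85 CPM, and NTN4, a netrin of basement membranes, from 57.7, 47.7 and 50.3 to 26.2, 20.8 and 25.9 CPM. SPTSSB, a subunit of the first enzyme of sphingolipid synthesis, fell by 1.24 on the log2 scale, SLIT1, an axon guidance ligand, by 1.26, and STEAP4, a metalloreductase, by 1.10. GPR1 (-1.36), SULT1C3, a sulfotransferase (-1.34), B3GALT4, a galactosyltransferase (-1.32), FRMD3 (-1.16), ABCA12, a lipid transporter (-1.16), CLIC3 (-1.12) and RASSF9 (-1.10) complete the 15, with a highest adjusted p of 0.0020. SLC16A4 was at 14.6, 12.4 and 15.8 CPM in sgZ3, which shares its sgC libraries with this comparison. In the direct test of sgZ1 against sgZ3, 3 of the 15 differed (28.6% of all genes did): TXNIP was higher in sgZ1 than in sgZ3 by 0.87 (approximate 95% interval 0.67 to 1.08), and BTC (-0.46, -0.71 to -0.20) and NTN4 (-0.59, -0.83 to -0.36) were lower.

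**Figure D3:**
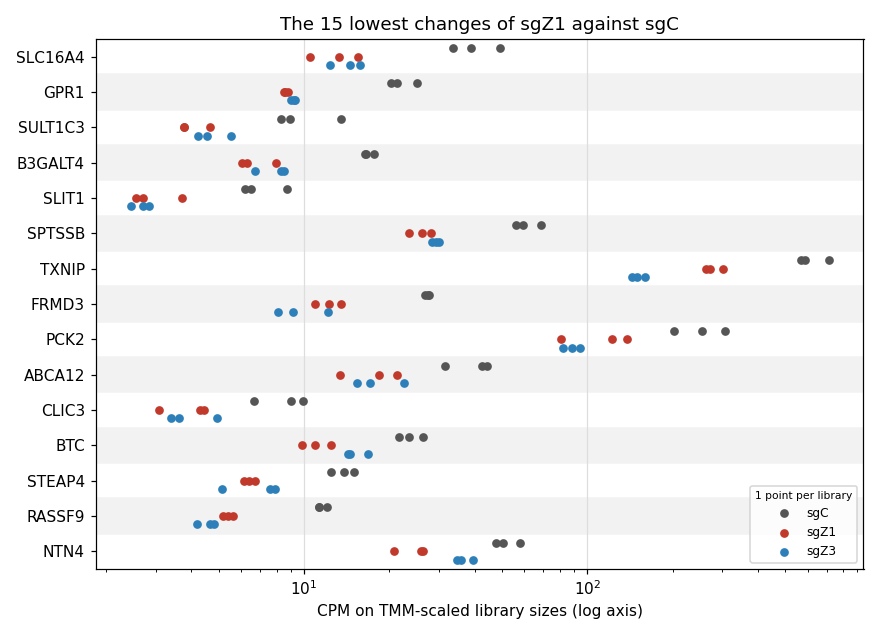
CPM on a log axis of the 15 genes with the lowest log2 fold changes of sgZ1 against sgC, 1 point per library (grey sgC, red sgZ1, blue sgZ3). The sgZ1 and sgZ3 points lie left of the sgC points, and TXNIP is lower in sgZ3 than in sgZ1.

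The mismatch-repair genes, listed because DLD1 lacks this function, had calls in both directions beside MSH6. MSH3, which recognises insertion and deletion loops, was lower (59.2, 53.4 and 59.1 CPM in sgC, 40.4, 30.0 and 37.0 CPM in sgZ1, log2 fold change -0.68, edgeR adjusted p = 0.003). MLH3 (-0.57, adjusted p = 0.019) and PCNA, the replication clamp (0.39, adjusted p = 0.043), passed in the fit to all libraries and each lost the call when any of 4 single libraries was left out, at adjusted p = 0.068 and 0.18 for sgC replicate 1, 0.073 and 0.14 for sgC replicate 3, 0.0525 and 0.142 for sgZ1 replicate 2, and 0.0587 and 0.0691 for sgZ1 replicate 3, PCNA also with upper-quartile factors (0.0512). PMS1 (0.04), PMS2 (-0.01) and EXO1 (0.27) did not pass (adjusted p = 0.064 to 0.97). Among 34 genes of DNA methylation and Polycomb silencing 9 were called higher (26.5%, against 15.5% of all genes) and 1 lower, with a median log2 fold change of 0.12 against 0.01 over all tested genes. The count of 9 was 4, 4 and 5 without sgC replicate 1, 2 and 3. DNMT3B, a de novo DNA methyltransferase, rose from 3.65 ± 0.381 to 9.68 ± 1.71 CPM and TRIM28, a corepressor of zinc-finger proteins, by 0.59 on the log2 scale.

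Part of the feedback genes of growth signalling rose. Of 18 genes of MAP kinase feedback 9 were called higher and 1 lower (median 0.32), and of 22 AP-1 and immediate-early genes 10 were higher and 0 lower (median 0.47). DUSP4, a phosphatase that switches off MAP kinases, was at 16.1, 16.8 and 15.3 CPM in sgC, and sgZ1 had 62.8, 58.2 and 59.7 CPM (log2 fold change 1.91, SE 0.09, edgeR adjusted p = 4.5e-08). DUSP5 (0.78) and SPRY4, an inhibitor of receptor signalling (0.69), also rose. FOSL1, an AP-1 subunit downstream of this pathway, rose from 13.2 ± 0.893 to 39.1 ± 6.97 CPM, with ATF3 (0.72) and JUN (0.50). MYC, a Wnt and growth-factor target, was at 102, 102 and 111 CPM in sgC, and sgZ1 had 211, 170 and 236 CPM (log2 fold change 0.97, SE 0.12, adjusted p = 0.00014). The 10 AP-1 calls were 6 without any of sgC replicates 1, 2 and 3 or sgZ1 replicates 1 and 3, and the 9 feedback calls were 6 without sgC replicate 2. Of 10 EGF ligands and ERBB receptors 4 were lower, 0 higher and 6 not called (40% lower against 10.3% of all genes, median -0.34), with BTC, TGFA (-0.45) and the receptor ERBB3 (-0.60) among them. In the Wnt list of 24 the calls were near the shares over all genes (15.5% higher, 10.3% lower): 4 were higher (16.7%), DKK1 and MYC among them, and 3 lower (12.5%), LGR4 (-0.59) and the Wnt target TNFRSF19 (-0.40) among them. The 4 were 2 without any sgC library or sgZ1 replicate 1 or 3.

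Many listed genes of ribosome assembly rose, while few ribosomal protein genes were called. Against sgC 15.5% of all tested genes were called higher and 10.3% lower, with a median log2 fold change of 0.01. Of 60 tested genes of the small-subunit processome, which processes the 18S precursor, 38 were called higher (63.3%) and 1 lower (median 0.39). Of 58 genes of large-subunit maturation 33 were higher and 0 lower (median 0.40), and of 42 RNA polymerase I and III genes 15 were higher and 2 lower (median 0.23). The processome helicase DHX37 was at 42.5, 41.9 and 44.4 CPM in sgC, and sgZ1 had 76.0, 79.3 and 89.6 CPM, and RRP9, a U3 snoRNP protein, rose by 0.95 on the log2 scale and NOL6 by 0.69. RIOK3, a kinase of late 40S precursors, was the 1 lower gene (-0.68). BOP1 and PES1, partners in 60S assembly, rose by 0.95 and 0.74, MRTO4 by 0.86 and NOC2L by 0.78. POLR3G, a polymerase III subunit of growing cells, rose by 0.92, POLR1E of polymerase I by 0.70 and its initiation factor RRN3 by 0.65. None of 33 genes of 40S proteins was called (median 0.13) and 3 of 49 of 60S proteins were higher (median 0.15), RPL14, RPL6 and RPL36AL, all 3 lost without sgC replicate 1 or 3 or sgZ1 replicate 2 or 3. Without sgC replicate 1 the 38, 33 and 15 became 20, 15 and 11, without sgC replicate 3 they became 23, 23 and 11, and without sgZ1 replicate 2 they were 35, 31 and 16. In the direct test against sgZ3 7 of 60 and 11 of 58 were higher in sgZ1 and 3 and 3 lower, against 15.8% and 12.8% of all genes. In sgZ3, against the same sgC libraries and with 19.2% of all genes called higher, 33 of 60 and 27 of 58 were higher, as were 17 of 33 and 34 of 49 ribosomal protein genes.

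Part of the replication and chaperone genes rose. For comparison, 15.5% of all tested genes were called higher and 10.3% lower. Of 52 genes of DNA replication and the G1/S transition 33 were higher (63.5%) and 1 lower (median 0.43). Of 47 genes of mitosis 4 were higher (8.51%) and 2 lower (4.26%, median 0.01). FEN1, a flap endonuclease, was at 66.8, 80.0 and 75.6 CPM in sgC, and sgZ1 had 123, 156 and 141 CPM. CCNE1, the cyclin of S-phase entry (0.89), CDT1, a licensing factor (0.88), UNG, which removes uracil from DNA (0.85), and MCM2 of the replicative helicase (0.66) rose, and CDC25C, a phosphatase of mitotic entry, fell (-0.57). Of 34 chaperone genes 17 were higher and 0 lower (median 0.30). FKBP4 and FKBP5, cochaperones of HSP90, rose by 1.14 and 1.14, CHORDC1 by 1.15 and CCT3, a subunit of the folding chamber CCT, by 0.72. The 33 and 17 became 22 and 9 without sgC replicate 1, 29 and 13 without replicate 2, 24 and 11 without replicate 3, and the 4 mitosis calls 1 each (2 without sgZ1 replicate 3). Of 30 CDK inhibitors and p53 targets 8 were higher (26.7%, against 15.5% of all genes), and beside CDKN2A these included AEN (1.02), PLK3 (1.09), PHLDA3 (0.99) and CDKN1A, which encodes p21 (0.49). The 4 lower genes of that list (13.3%, against 10.3% of all genes) were 0 without sgC replicate 1 or 2 or sgZ1 replicate 3, and 2 without sgC replicate 3 or sgZ1 replicate 1.

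Part of the epithelial and intestinal genes fell. Of 28 tested genes of intestinal identity and differentiation 13 were lower than in sgC (46.4%, against 10.3% of all genes). Only 1 was higher (3.57%, against 15.5%), and the median was -0.51. The 48 listed genes summed to 1742 to 1781 CPM in sgC, 1225 to 1349 CPM in sgZ1 and 1772 to 1846 CPM in sgZ3. AGR2, a secretory-cell disulfide isomerase, fell from 448, 452 and 405 to 281, 277 and 285 CPM. CDH17, an intestinal cadherin, fell by 0.55 on the log2 scale, GPA33, a gut surface antigen, by 1.48, and LGALS4, a gut lectin, by 1.39, while CA2, a carbonic anhydrase, was the 1 higher gene (1.03). In the direct test 10 of the 28 were lower in sgZ1 than in sgZ3 and 0 higher (12.8% and 15.8% of all genes were), AGR2 (-0.78), LGALS4 (-0.97), GPA33 (-0.76) and CDH17 (-0.46) among them. Of 35 genes of junctions and polarity 10 were lower than in sgC (28.6%, against 10.3% of all genes). In the same list 3 were higher (8.57%, against 15.5%), and the median was -0.245. The tight-junction genes CLDN1 (-0.63), CLDN12 (-0.49) and OCLN (-0.45) were lower and CLDN2 (0.59) and ESRP1 higher. Of 29 integrin, laminin and collagen genes 9 were lower than in sgC (31%) and 1 higher (3.45%), with a median of -0.17. ITGB6 (-1.005), ITGAV (-0.68) and ITGB8 (-0.83), which together form TGF-beta-activating integrins, were lower. The 13, 10 and 9 became 9, 3 and 3 without sgC replicate 1, 8, 4 and 8 without replicate 2, and 11, 7 and 3 without replicate 3. Without sgZ1 replicate 3 the 10 were 6, and without sgZ1 replicate 2 the 9 were 5.

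Contractile genes rose in part. Of 27 contractile and actin genes 12 were higher (44.4%, against 15.5% of all genes) and 0 lower (against 10.3%), with a median of 0.33. The 12 were 8 without sgC replicate 1 and 10 without sgZ1 replicate 2. MYL9, a smooth-muscle myosin light chain, was at 0.438, 1.13 and 0.853 CPM in sgC, at 18.7, 20.2 and 23.5 CPM in sgZ1 and at 1.15, 1.30 and 5.43 CPM in sgZ3. Of 10 tested genes of the mesenchymal list 1 was called higher (10%, against 15.5% of all genes), SNAI1, a repressor of E-cadherin, from 1.74 ± 0.137 to 5.22 ± 0.635 CPM, and VIM and SPARC did not pass (adjusted p = 0.30 and 0.34). Without the low-count filter VIM and SPARC were called (edgeR adjusted p = 2.08e-51 and 3.06e-44). Only sgZ1 replicate 2 was above sgC, with VIM at 22.9 against 0.606 and 0.493 CPM in the other sgZ1 libraries. SPARC was at 64.3 against 3.73 and 4.98 CPM. Such small p-values do not reflect the spread among the sgZ1 libraries. In the fit without sgZ1 replicate 2 and sgZ3 replicate 3 the higher calls of that list were 3. Of 16 keratins 6 were higher (37.5%) and 3 lower (18.8%), KRT6A, KRT13 and KRT23 from below 0.5 CPM, KRT10 by 1.06 and, downward, KRT16 by -1.28. KRT6A and KRT23 were also below 0.5 CPM in every sgZ3 library. They passed the count filter through sgZ1 alone, so their higher calls were fixed by that filter. These keratin counts were the same without any single library.

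Metabolic lists other than oxidative phosphorylation had calls in both directions, and the interferon list had lower calls alone. Of 31 genes of glucose sensing and glycolysis 6 were higher and 7 lower, TXNIP and its relative ARRDC4 (-0.94) and PDK1, which restrains pyruvate oxidation (-0.64), lower and ALDOC higher (1.51). Of 22 hypoxia genes 5 were lower and 2 higher, BNIP3L (-0.66) and P4HA1, a collagen hydroxylase (-0.62), lower and BNIP3 higher. Of 32 ATF4 and amino-acid stress genes 9 were lower and 4 higher, PSAT1 of serine synthesis (-0.59) and PCK2 lower and STC2 and the transporter SLC38A2 (0.51) higher. Of 33 lipid-synthesis genes 6 were higher (18.2%) and 4 lower (12.1%), near the shares over all genes (15.5% and 10.3%), and FADS1, a fatty-acid desaturase, was at 11.9, 13.0 and 12.3 CPM in sgC, and sgZ1 had 40.5, 39.5 and 39.5 CPM, with MVD (1.08) and FASN (0.59) also higher. Of 54 oxidative phosphorylation genes 4 were higher and 0 lower. Of 30 interferon-stimulated genes 7 were lower and 0 higher (median -0.24), HERC6 (-0.67) and OAS1 (-0.49) among them, of 26 chemokine and NF-kappaB genes 6 were lower and 1 higher, with BIRC3 (-0.64) and IL18 (-0.46) lower, and of 31 NRF2 and xenobiotic genes 6 were lower and 1 higher, CYP1B1 (-0.87), CYP1A1 (-1.58) and ABCC3 (-0.61) lower and ABCC2 higher. Of 26 TGF-beta and BMP genes 8 were lower and 4 higher, BMP2 (-0.71), its target ID2 (-0.69) and INHBB (-0.82) lower and SMURF2, a ubiquitin ligase of the pathway, higher (0.69). Higher calls stayed under 15.5% for TGF-beta (15.4%), ATF4 (12.5%), hypoxia (9.09%), oxidative phosphorylation (7.41%), chemokines (3.85%) and NRF2 (3.23%). Lower calls exceeded 10.3% for TGF-beta (30.8%), ATF4 (28.1%), interferon (23.3%), chemokines (23.1%), hypoxia (22.7%), glucose (22.6%) and NRF2 (19.4%). Of the glucose genes 19.4% were higher. Single libraries moved some of these counts by over 1.5 times: the 6 higher glucose genes were 3 without sgC replicate 1 or 3, the 4 oxidative phosphorylation genes 1 without sgC replicate 1 or 3 or sgZ1 replicate 2 and 2 without sgZ1 replicate 3, the 4 lower lipid genes 1 without sgC replicate 2 or sgZ1 replicate 3 and 2 without replicate 1 of either group, the 4 higher TGF-beta genes 2 without any sgC library or sgZ1 replicate 3, the 7 lower interferon genes 3 without sgC replicate 1 and 4 without sgC replicate 2, the 5 hypoxia genes 2 without sgC replicate 1 or 2, the 9 amino-acid genes 5 without sgC replicate 1 or 3, and the 6 inflammatory genes 3 without any sgC library and 2 without sgZ1 replicate 3.

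**Figure D4:**
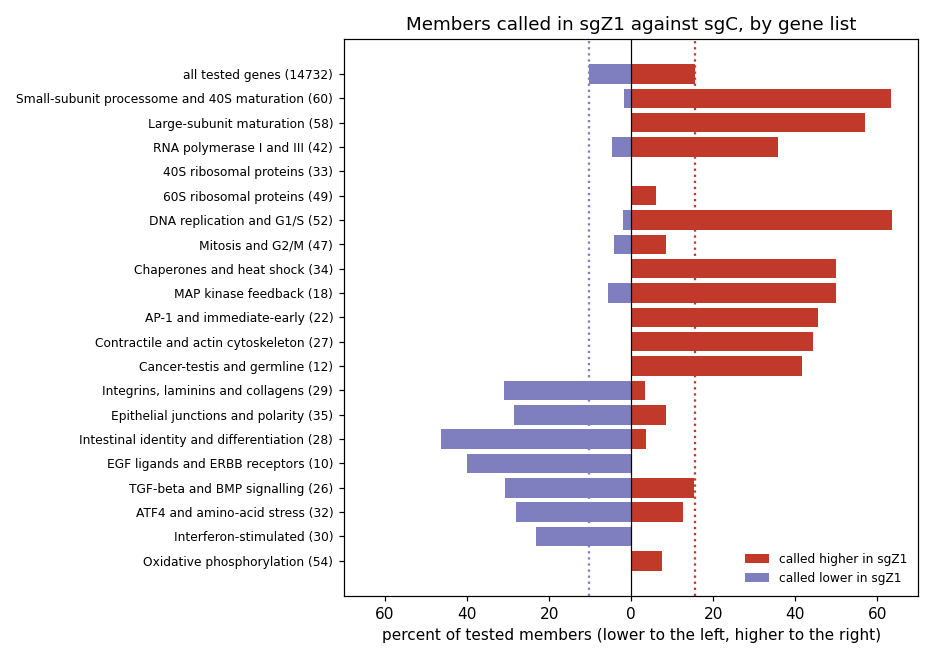
Share of the tested members of each gene list (number tested in brackets) called higher (red, right) or lower (blue, left) in sgZ1 against sgC, with dotted lines at the shares over all 14732 tested genes, 15.5% higher and 10.3% lower. Small-subunit processome, large-subunit maturation and G1/S genes reach furthest right and intestinal genes furthest left.

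By position, chromosome 19 had the highest median log2 fold change, 0.16 against 0.01 over all tested genes with a position, with 25.2% of its 991 tested genes called higher and 3.53% lower. The medians of single sgZ1 libraries on it, against the mean of sgC, were 0.13, 0.06 and 0.24. Chromosomes 22 (0.15), 17 (0.13) and 16 (0.11) followed, and chromosomes 18 (-0.12) and 13 (-0.11) were lowest. In sgZ3 against the same sgC libraries the median of chromosome 19 was -0.02. The GC content of transcripts moved with this order: the median was 58.8% on chromosome 19 and 48.8% over all genes, and of 4 equal groups of genes by GC, the richest had a median log2 fold change of 0.16 and the poorest -0.14. The same 4 groups had medians of -0.19, -0.0004, 0.10 and 0.08 in sgZ3 against sgC, from poorest to richest. Within these 4 groups, from poorest to richest, chromosome 19 genes had medians of -0.19, -0.09, 0.21 and 0.21 against -0.14, -0.02, 0.08 and 0.16 over all genes. The part of GC content in the chromosome medians was not tested further. Over 282 runs of 50 neighbouring tested genes the medians ran from -0.27 to 0.47, 5 being above 0.3 and 0 below -0.3. The highest run lies on 19p, with gene starts from 1505018 to 3506273 (GENCODE 29, GRCh38), where 29 of 50 genes were called higher and 0 lower. Its 3 genes of smallest p were DIRAS1, the zinc transporter gene SLC39A3 (6.92, 6.91 and 8.61 CPM in sgC, 20.4, 21.5 and 20.8 CPM in sgZ1) and TLE2, a Groucho-type corepressor (log2 fold change 1.72).

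**Figure D5:**
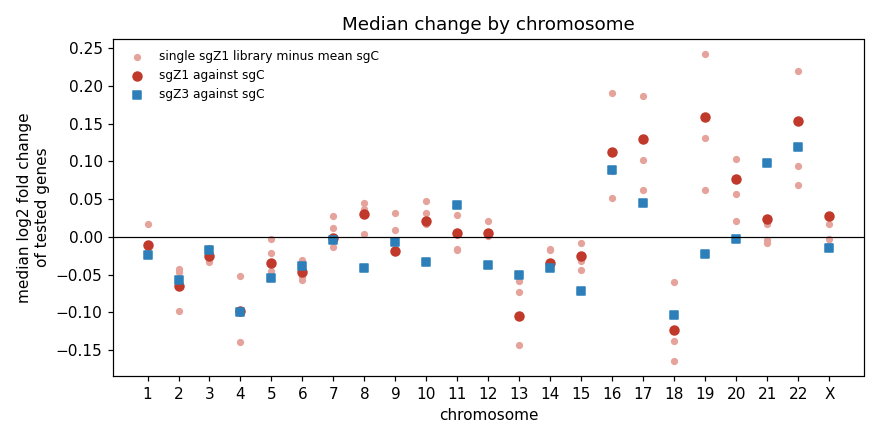
Median log2 fold change of the tested genes of each chromosome for sgZ1 against sgC (red circles) and sgZ3 against sgC (blue squares), with the 3 single sgZ1 libraries against the mean of sgC as small points. Chromosomes 19, 22, 17 and 16 lie highest in sgZ1, and chromosome 19 lies at -0.02 in sgZ3.

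Tested directly against sgZ3, 4209 genes differed in sgZ1 (28.6%), 2327 higher (15.8%) and 1882 lower (12.8%). Beyond 2 on the log2 scale 502 were higher and 3 lower, so the lopsided shape seen against sgC was there against sgZ3 as well. The level rule found 112 genes on in sgZ1 and 0 off against sgZ3. With library totals alone as the scale, the median over all genes moved by 0.11 and the share of higher genes among the calls from 55.3% to 73.0%. The total was 2501, 2690 and 2636 without sgZ1 replicate 1, sgZ3 replicate 1 and sgZ3 replicate 2, and the lower calls were 2871 without sgZ3 replicate 3. Among protein-coding genes with a mean of at least 5 CPM over the libraries compared and groups apart, the 6 largest differences upward were those of M1AP, ANXA10, NTSR1, SLC38A5, NPW and HTR7, genes near zero in sgZ3. Among the 6 lowest, C4BPB, a complement regulator, differed by -1.62 (6.67, 8.30 and 7.93 CPM in sgC, 5.96, 7.21 and 6.75 CPM in sgZ1, 21.7, 22.8 and 16.8 CPM in sgZ3), MFSD2A, a lipid transporter, by -1.18 and NPTX2, a pentraxin, by -1.16. These 3 did not pass in sgZ1 against sgC (adjusted p = 0.37, 0.072 and 0.55), so it was their level in sgZ3 that lay apart.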

How the data were processed

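Poly(A) RNA was measured in 9 libraries, grouped by their titles. For 1 sgC sample the description points to the other table of the series, while title and molecule place it here. The deposited table holds whole-number counts per gene, not normalized, made by the authors. Builds hg38 and GRCh38 and the tools DESeq2, HTSeq, SAMtools 1.9 and STAR 2.5.2b stand, without roles, in the submitters' processing notes. Neither the annotation release nor the strand setting is given there. All 13 mitochondrial genes were at 0. The ribosomal RNA libraries were not used here.

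Counts were fitted with edgeR 4.0.16 (R 4.3.3; filterByExpr, TMM, robust quasi-likelihood, group as the only term, all 9 libraries). P-values were adjusted by Benjamini-Hochberg over 14732 genes. The common biological coefficient of variation was 12.7%. Coordinates came from GENCODE 29. On simulated counts for sgZ1 against sgC (14480 genes), 42.9%, 76.0% and 100% of genes changed 1.5-, 2- and 4-fold were recovered, with 10 false calls of 166. Only 49, 50 and 97 genes were changed by these sizes, while 25.8% of genes were called in the data. The simulated rates therefore need not hold for the data. Limits from 0 counts cover counting error only.

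The 50 gene lists and all members were chosen with earlier results of these data known. Lists are described by counts and medians, without a test of the list. A listed gene near zero in sgC and sgZ3 passed the count filter through sgZ1 alone, which fixed the direction of its call. Named genes were ZNF692 and its neighbours, the 15 highest and 15 lowest log2 fold changes (protein coding, mean of at least 5 CPM, groups apart), the 12 highest genes that were on, members of smallest p per list with all mismatch-repair genes, extremes against sgZ3 and the top 3 of the highest run. Some genes that the rule names are not reported here. CDX2, EPCAM, CPNE7, MAGEA6, COL12A1, LOXL2, CSAG3, RUNX3, IRX4, PRRX2, LMX1B, WNT3A, genes at the edge of the level rule and fibroblast markers were named after their values were seen. So were ALDOA, HBE1 and OR51B5. Of 160 genes given with fitted values, 79 have an annotated gene on the other strand, so their counts may hold its reads. Each library was left out in turn, and other scalings, filters, DESeq2 1.42.0, a 2-fold minimum, a fit of the 6 compared libraries and a replicate block were tried.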

Additional observations from a re-analysis of the deposited data

Results flagged for a closer look

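Some genes were called in opposite directions in the derivatives, each against the same sgC libraries, with the direct difference called as well. Over all tested genes 102 had the higher call in sgZ1 and 46 in sgZ3. Among the genes named, MAGEA3 differed between sgZ1 and sgZ3 by 5.02 on the log2 scale, CDKN2A by 5.09, BNIP3 by 3.83, PRAME by 3.70, ALDOC, a brain-type aldolase, by 2.86, and ESRP1 by 2.22. CDKN2A ranged from 32.3 to 36.9 CPM in sgZ1, from 1.80 to 3.16 in sgC and from 0.705 to 1.22 CPM in sgZ3. EPCAM (-0.62) and TNFRSF19 (-0.81) were lower in sgZ1 and higher in sgZ3. EPCAM was not called in sgZ1 against sgC without sgC replicate 1 or 2 or sgZ1 replicate 1 or 3 (adjusted p = 0.066 to 0.13).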

How the results depend on the processing

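With DESeq2, with 3 other scalings, without a filter on low counts and with the 6 compared libraries alone, the sgZ1 against sgC total stayed between 3800 and 4368. A mean of at least 10 CPM left 2530 calls (1440 higher), and a 2-fold minimum 475 (471 higher, 4 lower). The 7 libraries without sgZ1 replicate 2 and sgZ3 replicate 3, chosen after seeing the data, gave 5894 (2605 lower), 3726 of them shared with the 3807. Leaving out 1 sgC or sgZ1 library gave 2129 to 3641 calls, 1442 to 2223 higher and 687 to 1418 lower. Without sgZ3 replicate 1, 2 or 3, respectively 3480, 3371 and all 3807 of the main calls were still called. For sgZ1 against sgZ3 a mean of at least 10 CPM gave 2675 (1400 higher) and a 2-fold minimum 527 (522 higher, 5 lower). The 7 libraries gave 7932 (4464 higher, 3468 lower) and library totals alone 1148 lower. Leaving out 1 sgZ1 or sgZ3 library gave 2501 to 6153 (1466 to 3282 higher, 1035 to 2871 lower). The causes were not tested. Genes on were 52 above 5 CPM and 121 to 138 otherwise, and 0 genes were off under every one of these rules. Runs of 100 genes had a highest median of 0.30 above all genes against 0.46 for runs of 50. Whether replicate numbers pair the samples was not settled. Same-number deviations of sgZ1 and sgC correlated by 0.003, 0.25 and 0.14, and different-number ones by -0.26 to 0.20. A replicate block gave 4202 calls. Of fitted values of named genes 2355 kept direction and side of the threshold, 137 lost and 16 gained the call, and 0 reversed. Depth limits the genes near zero, where a library's single count is about 0.05 CPM.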
